A study of Mus musculus with 8 samples.

Results

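The homeostatic signature of microglia was examined here through 9 genes, P2ry12, Tmem119, Cx3cr1, Gpr34, Sall1, Siglech, Olfml3, P2ry13 and Fcrls. The members were given by name and found among the 52636 Ensembl identifiers of the count table through GENCODE vM21 gene symbols, where each of the 9 matched 1 identifier. Of these, 8 had enough reads to be tested, among 13847 tested genes, and Siglech did not. RNA-seq had been run on primary microglia of wild-type C57BL/6 mice (the methods name C57BL/6N pups), shaken off mixed glial cultures of neonatal brain. Both groups were kept in medium with 10% fetal bovine serum and 10 ng/ml CSF-1, a growth factor on which microglia depend. The LPS group (4 libraries) received 5 µg/ml lipopolysaccharide, a bacterial cell wall component that activates Toll-like receptor 4, for 24 h, and the vehicle group (4 libraries) received vehicle for the same time. The sources name the 4 libraries of each group as biological replicates without saying whether they came from separate cultures, so p-values measure the spread between these libraries.

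Microglia are the resident macrophages of brain tissue, and in the healthy brain they express a set of genes that other macrophages mostly lack. The set includes receptors with which microglia sense nucleotides and neuronal signals, surface proteins, and the transcription factor Sall1, and it depends on TGF-beta, CSF-1 and other cues of the tissue. Its expression falls when microglia are taken into culture and when they are exposed to inflammatory stimuli, so cultured cells are a limited model of the healthy state.

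Libraries held 20071921 to 30604447 counts. All 18 pan-macrophage genes (Aif1, Itgam, Cd68 and others) were detected. Their summed level was 42448 to 67490 CPM in vehicle and 24724 to 34958 CPM in LPS libraries. CPM are counts per 1e6 counts, with libraries scaled by the trimmed mean of M values (TMM). The largest part of that sum was Lyz2, at a mean of 33881 CPM in vehicle and 12374 CPM after LPS. All 8 genes of an LPS response check list (Tnf, Il1b, Il6, Nos2, Ccl5, Cxcl10, Il12b and Saa3) were higher after LPS, with a median log2 fold change of 7.34. Of the 9 signature genes, 8 had enough reads to be tested, while Siglech was close to absent in both groups. As these genes are the ones under study, they are no independent check of the microglia label.

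The members lie on 6 chromosomes of GRCm38. P2ry12 (chr3:59216272-59262871, minus strand) and P2ry13 (chr3:59207892-59210882, minus strand) are neighbours within Med12l, a gene of the opposite strand. Fcrls (chr3:87250758-87263738) and Olfml3 (chr3:103722222-103738001) lie farther along the same chromosome, both on the minus strand. Tmem119 (chr5:113793729-113800516), Cx3cr1 (chr9:119901616-120069879) and Sall1 (chr8:89027235-89044162) are on the minus strand, and Siglech (chr7:55768178-55778925) and Gpr34 (chrX:13632089-13640858, inside Cask on the opposite strand) on the plus strand. Exons of P2ry12 overlapped exons of the opposite strand over 0.353% of their length, exons of Cx3cr1 over 1.73%, and the other 7 members over none. At most 1.06% of the 50-base stretches of any member (Cx3cr1) occurred in another gene, so a copy elsewhere could take few of its reads.

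RefSeq promoter windows (GRCm38.p6, 250 bases before to 50 after a transcription start) were found for 7 of the 9 members, in 9 windows. Tmem119 and Gpr34 had no entry. The 250 bases before the start are shown for the neighbouring ADP receptors P2ry12 and P2ry13 and for Sall1, the transcription factor among the members, each read 5′ to 3′ on the strand of the gene. Capitals mark the letters GAGGAA, the core of the site of PU.1, a factor that macrophages depend on, and GTCTG or its reverse complement CAGAC, the core bound by SMAD proteins of the TGF-beta pathway. Both were searched on both strands, and neither overlaps the other in these windows.
P2ry12 (chr3:59262986-59263235, minus strand): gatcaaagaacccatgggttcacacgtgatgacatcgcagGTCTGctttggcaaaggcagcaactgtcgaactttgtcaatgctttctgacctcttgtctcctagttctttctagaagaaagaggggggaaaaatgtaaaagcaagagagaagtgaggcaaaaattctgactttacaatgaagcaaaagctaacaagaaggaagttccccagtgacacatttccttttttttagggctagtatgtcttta
P2ry13 (chr3:59210883-59211132, minus strand): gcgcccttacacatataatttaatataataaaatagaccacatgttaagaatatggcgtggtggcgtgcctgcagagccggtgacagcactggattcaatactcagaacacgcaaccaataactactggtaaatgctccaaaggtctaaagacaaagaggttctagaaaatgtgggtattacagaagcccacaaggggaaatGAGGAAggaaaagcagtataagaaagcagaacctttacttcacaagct
Sall1 (chr8:89044163-89044412, minus strand): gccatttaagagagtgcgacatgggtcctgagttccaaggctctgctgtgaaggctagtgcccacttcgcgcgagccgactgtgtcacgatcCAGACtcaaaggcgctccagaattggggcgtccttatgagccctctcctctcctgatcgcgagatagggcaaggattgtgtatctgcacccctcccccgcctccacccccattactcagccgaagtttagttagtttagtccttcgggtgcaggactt

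P2ry12 held GTCTG 210 bases before its start, P2ry13 held GAGGAA 48 bases before its start, and Sall1 held CAGAC 158 bases before its start. GAGGAA was in 3 of the 9 member windows (Fcrls, P2ry13 and Siglech), and in 28.3% of all 32851 windows. GTCTG was in 5 of the 9 (Cx3cr1, Fcrls, P2ry12, 1 of the 3 windows of Sall1, and Siglech), and in 49.6% of all windows. The AP-1 site TGANTCA was in 0 of the 9, against 7.81% of all windows, and the cyclic AMP response core TGACG was in 1, of Sall1, against 20.8%. With 9 windows these counts do not set the members apart from other genes, and a match is no evidence of binding.

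In vehicle-treated microglia the members differed widely in level. Per kilobase of exon, Fcrls, an Fc receptor-like protein, was at 342 ± 130 CPM/kb (SD, n = 4, as throughout) and Cx3cr1, the receptor for the neuronal chemokine fractalkine, at 219 ± 46.9 CPM/kb, and the ranges of the pair overlapped. Well below them came Olfml3 at 17.6 ± 5.95, Gpr34 at 16.8 ± 5.45, P2ry12 at 13.3 ± 4.54 and P2ry13 at 12.2 ± 3.30 CPM/kb, each overlapping the next. Tmem119 at 4.06 ± 2.11 and Sall1 at 3.02 ± 0.55 CPM/kb overlapped each other and lay below the other tested members. The per-length level of Olfml3 rests on an annotated exon length of 6161 bases, the longest of the 9.

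**Figure D1:**
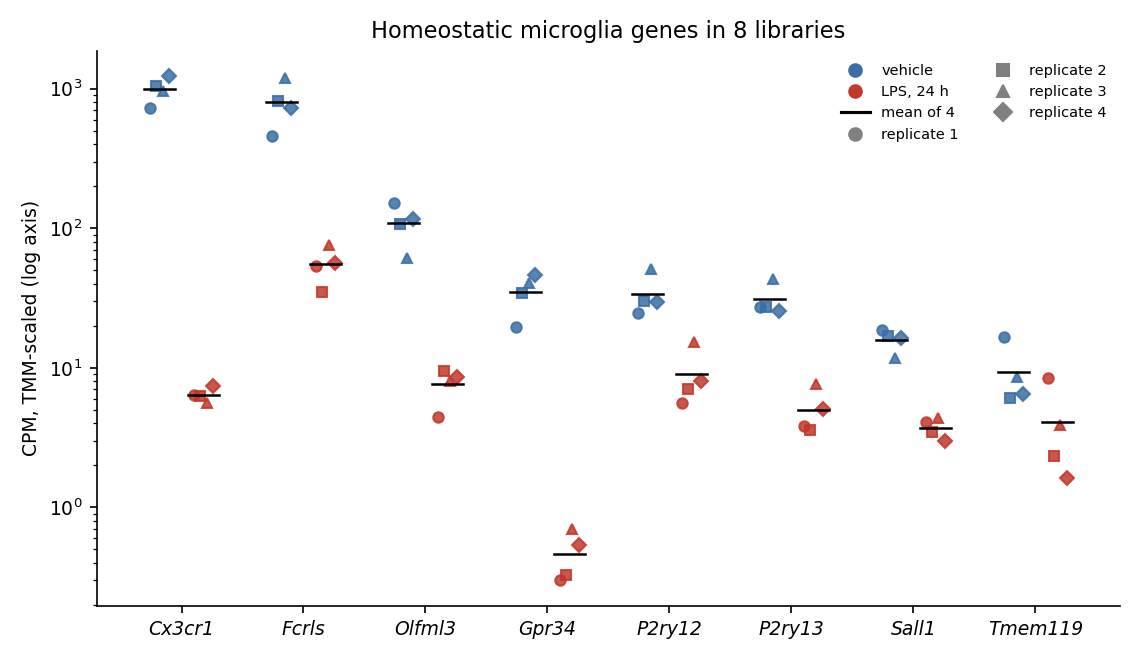
Level of each tested member in each library, in CPM on a log axis, for 4 vehicle and 4 LPS libraries (points), with the mean of each group (bars). The groups are apart for 7 of the 8 members, and for Tmem119 the highest LPS library (8.38) lies above 2 of the vehicle libraries.

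After LPS the level order changed. Fcrls remained highest at 23.6 ± 7.17 CPM/kb and stood apart from the rest, while Cx3cr1, at 1.43 ± 0.166 CPM/kb, lay within a run of overlapping members formed by P2ry12 (3.52 ± 1.68), P2ry13 (1.98 ± 0.726), Tmem119 (1.76 ± 1.31), Olfml3 (1.24 ± 0.363) and Sall1 (0.706 ± 0.116). Gpr34 was lowest of the tested members at 0.223 ± 0.0905 CPM/kb. On this scale P2ry12 went from the fifth place in vehicle to the second place in LPS libraries.

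Of the 8 tested members, 7 were lower after LPS and 0 were higher (edgeR quasi-likelihood test, Benjamini-Hochberg adjusted p under 0.05 over all genes). Of all tested genes, 33.8% were lower and 30.3% higher under the same rule (64.1% in either direction), which is 4686 and 4191 genes. With libraries scaled to their totals in place of TMM, whose factors were 1.21 to 1.32 in vehicle and 0.701 to 0.833 in LPS libraries, 8457 genes were lower and 1988 higher, the median of all genes moved by −0.677, and no member changed direction. In 7 of the 8 members all 4 LPS libraries lay below all 4 vehicle libraries, as in 31.5% of all tested genes. No member was higher at an unadjusted p under 0.05 or by DESeq2 either. The median log2 fold change of the members was −3.22, beside −0.11 over all tested genes, of which 5% were below −2.77. Cx3cr1, Gpr34, Fcrls and Olfml3 lay beyond that 5th percentile, and P2ry13, Sall1, P2ry12 and Tmem119 did not. Because the libraries are of bulk RNA, fewer cells of a type and less RNA per cell cannot be told apart.

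**Figure D2:**
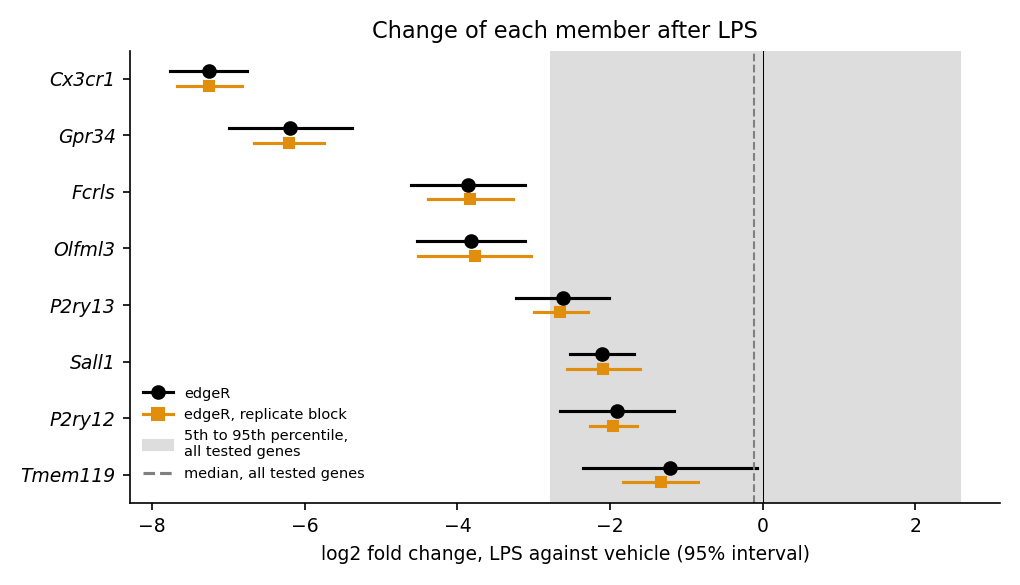
Log2 fold change of each tested member, LPS against vehicle, with its 95% interval, from edgeR without (circles) and with (squares) the replicate number as a block, over the 5th to 95th percentile of all tested genes (grey, −2.77 to 2.59). Cx3cr1 (−7.26) and Gpr34 (−6.19) lie farthest to the left, and only for Tmem119 does the interval without the block come close to 0.

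Among the members, the receptors that sense nucleotides and lipids all fell. P2ry12 encodes the ADP receptor that directs microglial processes to injured cells. It was at 24.7, 29.9, 50.7 and 29.8 CPM in vehicle replicates 1 to 4 and at 5.57, 7.03, 15.2 and 8.06 CPM in LPS replicates 1 to 4. Every LPS library lay below every vehicle library, with replicate 3 highest in both groups. The log2 fold change was −1.91 (SE 0.332, edgeR adjusted p = 0.00071), a 3.75-fold fall with a 95% interval of 2.24 to 6.28.

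P2ry13 encodes the second ADP receptor of microglia, from the neighbouring gene. Its levels were 27.2, 27.4, 43.4 and 25.7 CPM in vehicle and 3.83, 3.59, 7.6 and 5.03 CPM in LPS libraries. Again replicate 3 was highest in both groups and the groups did not overlap. It fell 6.14-fold (log2 fold change −2.62, SE 0.272, edgeR adjusted p = 2.71e-05).

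Gpr34 encodes a receptor for lysophosphatidylserine, a lipid. It was at 19.5, 34.6, 40.3 and 46.0 CPM in vehicle libraries. In LPS libraries it was at 0.299, 0.327, 0.70 and 0.541 CPM, which rested on 5, 6, 15 and 10 counts. The vehicle libraries were all far above the LPS libraries, and the value after LPS carried the largest counting error of the tested members. The log2 fold change was −6.19 (SE 0.362, edgeR adjusted p = 8.25e-07), a 72.9-fold fall.

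Cx3cr1, with which microglia receive the neuronal signal fractalkine, fell most. It was at 723, 1039, 958 and 1233 CPM in vehicle and at 6.40, 6.32, 5.60 and 7.41 CPM in LPS libraries. The LPS libraries were close to one another, and in the order of log2 fold changes from the lowest Cx3cr1 ranked 33 of 13847 genes. The fall was 154-fold (95% interval 108 to 218), with a log2 fold change of −7.26 (SE 0.224, edgeR adjusted p = 3.75e-08).

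The surface proteins gave 3 different pictures. Fcrls was at 461, 816, 1192 and 726 CPM in vehicle and at 53.4, 34.9, 75.8 and 56.0 CPM in LPS libraries. The groups did not overlap, and in the LPS libraries it stayed above every other member per kilobase. It fell 14.5-fold (log2 −3.86, SE 0.335, edgeR adjusted p = 8.65e-06).

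Tmem119 encodes a transmembrane protein used widely as a microglial marker. It was at 16.6, 6.05, 8.53 and 6.46 CPM in vehicle and at 8.38, 2.34, 3.92 and 1.62 CPM in LPS libraries. Replicate 1 was highest in both groups, and LPS replicate 1 lay above vehicle replicates 2 and 4, so the groups overlapped. The log2 fold change was −1.21 (SE 0.507, 95% interval −2.35 to −0.0775) and did not pass the threshold (edgeR adjusted p = 0.0589). Without LPS replicate 1 it was −1.82 (adjusted p = 0.00659 by edgeR), and without vehicle replicate 1 it was −0.754 (adjusted p = 0.223 by edgeR). Within replicate numbers the LPS library was lower in 4 of 4 pairs, by log2 differences of −0.983, −1.37, −1.12 and −1.99. With the replicate number as a block the log2 fold change was −1.33 (SE 0.212, edgeR adjusted p = 0.000911), and all 8 tested members were then called lower, where 35.6% of all tested genes were lower and 29.7% higher.

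Siglech encodes a sialic acid-binding lectin that signals through the adaptor Tyrobp. It had 1, 0, 2 and 2 counts in vehicle and 0 counts in each LPS library, and a count of 0 allows up to 3. Neither group rose above that limit, so no fold change was computed and no difference was detectable at this depth. Tyrobp itself was measured at 881 to 937 CPM in vehicle and at 362 to 469 CPM after LPS (log2 −1.06, called lower).

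Sall1 encodes a zinc finger transcription factor that maintains microglial identity. It was at 18.6, 16.9, 11.8 and 16.4 CPM in vehicle and at 4.07, 3.49, 4.34 and 2.98 CPM in LPS libraries. The spread within groups was small, and the groups were apart. It fell 4.28-fold (log2 fold change −2.10, SE 0.188, edgeR adjusted p = 1.06e-05).

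Olfml3 encodes a secreted glycoprotein of the olfactomedin family. It was at 151, 106.5, 61.6 and 116 CPM in vehicle and at 4.43, 9.53, 8.07 and 8.60 CPM in LPS libraries. The lowest vehicle library still exceeded the highest LPS library several-fold. It fell 14.1-fold (log2 fold change −3.82, SE 0.315, edgeR adjusted p = 6.37e-06).

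Whether the members fell by different amounts was tested with the ratio of each member to P2ry12 within a library, a measure that does not depend on normalisation. The log2 ratio of P2ry13 to P2ry12 was −0.104 ± 0.169 in vehicle and −0.793 ± 0.224 in LPS libraries, and no LPS ratio reached a vehicle ratio. The log2 ratio to P2ry12 differed, LPS minus vehicle, by −5.28 for Cx3cr1, −4.20 for Gpr34, −1.87 for Fcrls and −0.689 for P2ry13, each with the smallest p that 70 divisions of the 8 libraries allow (two-sided exact permutation test, p = 0.0286, adjusted over 8 ratios 0.0571). The adjustment counts the ratio of Siglech, which rests on 0 to 2 counts and was not read. For Olfml3 the difference was −1.85 (exact permutation p = 0.0571, adjusted 0.0914). None of these 5 passed 0.05 after adjustment. Without vehicle replicate 3 each had an adjusted p of 0.0457 in the same exact permutation test. There Olfml3 also reached the smallest p, and this tie alone lowered the adjusted value of the others. With any other library left out, the adjusted p of that test was 0.0571 or more. With the replicate pairs kept, exact sign flips within the 4 pairs gave each of the 5 the smallest p they allow, which is above 0.05, and 0.2 after adjustment. For Sall1 the difference was −0.125 (exact permutation p = 0.83), over log2 ratios of −1.05 ± 0.73 in vehicle and −1.17 ± 0.582 in LPS libraries. For Tmem119 it was 0.604 (exact permutation p = 0.486) over an SD of 0.903 in vehicle and 1.30 in LPS, too wide a spread to tell its change from that of P2ry12.

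**Figure D3:**
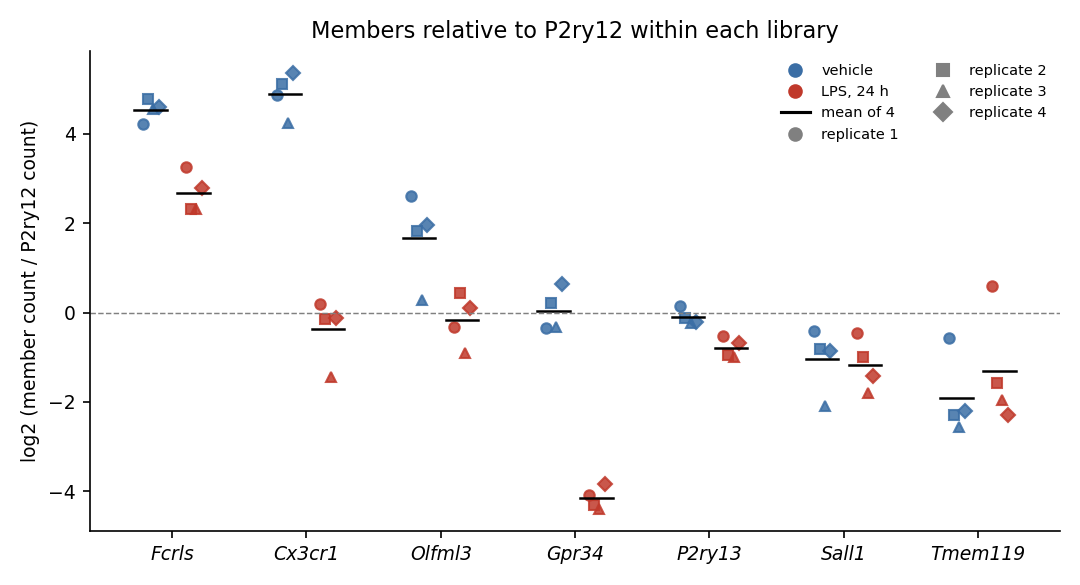
Log2 ratio of each tested member to P2ry12 within each library, from counts plus 0.5, for 4 vehicle and 4 LPS libraries. The LPS points are all below the vehicle points for Cx3cr1, Gpr34, Fcrls and P2ry13, and the groups overlap for Olfml3, Sall1 and Tmem119.

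Libraries of 1 group did not rank alike across members. Replicate 3 was highest in both groups for P2ry12, P2ry13 and Fcrls, and over the 8 tested members it was highest in 3 within vehicle and in 5 within LPS. In vehicle, replicate 3 was also lowest for Sall1 and Olfml3, with log2 differences of −0.548 and −1.01 from the mean of the other 3 libraries. Vehicle replicate 1 was lowest for P2ry12, Cx3cr1, Gpr34 and Fcrls and highest for Tmem119, Sall1 and Olfml3. The members therefore fell into different orders across the vehicle libraries.

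**Figure D4:**
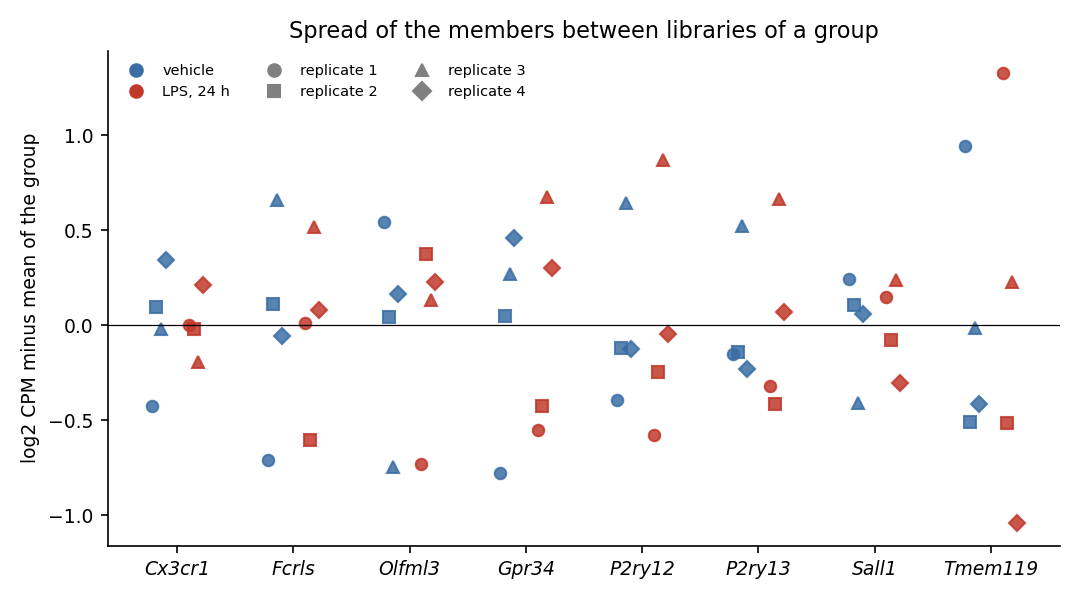
Log2 CPM of each library minus the mean of its group, for each tested member, by replicate number (marker shape) and group (colour). Replicate 3 lies above the mean in both groups for P2ry12, P2ry13 and Fcrls, and replicate 1 lies highest in both groups for Tmem119.

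Markers of other cell types also differed between these libraries. The summed level of 5 oligodendrocyte precursor markers (Pdgfra, Cspg4, Olig1, Olig2 and Sox10) was 14.8 CPM in vehicle replicate 3. It was 38.0 to 50.7 CPM in the other vehicle libraries. The 6 astrocyte markers summed to 18.8 CPM in vehicle replicate 3 and to 34.9 to 38.3 CPM in the others. Not every marker followed these sums. Cspg4 had 362 counts in vehicle replicate 3, near the 363 and 374 in replicates 2 and 4, beside 686 in replicate 1. Among vehicle libraries Aldh1l1 was highest in replicate 3 (12.3 CPM) and Gja1 lowest in replicate 4. Pdgfra, Olig1, Olig2, Sox10, Gfap, Aqp4, Slc1a3 and Aldoc were lowest in vehicle replicate 3. The 6 border macrophage markers, with Mrc1 and Pf4, summed to 1719 CPM in vehicle replicate 3 and to 926 to 1135 CPM in the others. In LPS libraries the precursor sum was 0.466 CPM in replicate 3 and 5.34 to 7.24 CPM in the others, while Sall1 was highest in LPS replicate 3. The part of these cells in the levels of Sall1 and Olfml3 was not tested.

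Between the groups, the precursor sum went from 14.8 to 50.7 CPM in vehicle to 0.466 to 7.24 CPM after LPS, the oligodendrocyte sum from 79.3 to 114 CPM to 18.3 to 23.0 CPM with Mobp at the floor, and the border macrophage sum from 926 to 1719 CPM to 540.0 to 971 CPM with Lyve1 at the floor. Of its 4 tested genes, Mrc1 (log2 −4.07), F13a1 (−4.47) and Pf4 (−1.47) fell, and Ms4a7, which made up most of the sum after LPS, was at 476 CPM in vehicle and 719 CPM after LPS (edgeR adjusted p = 0.0586, and 0.00342 with the replicate block). The astrocyte sum went from 18.8 to 38.3 CPM to 38.0 to 114 CPM, a rise that came from Gja1 alone (0.873 CPM in vehicle, 48.6 CPM after LPS), while Gfap (log2 −2.41), Aqp4 (−3.34) and Aldh1l1 (−1.60) fell and Slc1a3 and Aldoc did not pass the test. The endothelial sum went from 31 to 73.5 CPM to 163 to 254 CPM with Cldn5 at the floor, the fibroblast sum from 0.497 to 3.52 CPM to 5.30 to 21.3 CPM, and the monocyte or neutrophil sum from 2.09 to 3.61 CPM to 575 to 1177 CPM with S100a9 and Ly6g at the floor. The fibroblast rise was mostly that of Dcn (0.136 to 8.90 CPM), while Col1a1, Col1a2 and Pdgfrb had lower means after LPS. The monocyte or neutrophil rise was that of S100a8 (0.365 to 777 CPM), while Ly6c2 was below 1 CPM on average in both groups and Ccr2, at 2.40 and 3.56 CPM, did not pass (edgeR adjusted p = 0.0692). The neuronal sum was 1.84 to 6.39 CPM and 1.77 to 5.51 CPM. Of its 3 tested genes, Snap25 (log2 −2.29) and Syt1 (−2.13) fell. Gad1, at 2.03 CPM in vehicle and 2.20 CPM after LPS, did not pass (edgeR adjusted p = 0.873). The part of these cell types in the lower levels of the members was not tested.

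Other genes of the homeostatic state mostly fell too, with a smaller median. Of 26 tested genes in a list of 30, 17 were lower and 3 were higher, beside 33.8% and 30.3% of all tested genes. The median log2 fold change of the list was −0.991. Gas6 and Pros1, which bridge dying cells to the receptor Mertk, fell, with log2 fold changes of −4.97 and −4.05, as did Mertk itself (−2.23). Csf1r, the receptor of the CSF-1 present in both media, fell from 3181 ± 378 to 426 ± 214 CPM. The integrin subunit gene Itgb5 also fell (−3.43). The 3 higher genes were P2ry6 (0.876), the receptor for UDP in phagocytosis, Lpcat2 (1.14), a lipid enzyme, and Golm1 (0.539). Golm1 turned to a lower level when libraries were scaled to their totals, and P2ry6 (0.219, edgeR adjusted p = 0.284) and Lpcat2 (0.485, edgeR adjusted p = 0.1) then lost their calls.

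Macrophage genes shared with other tissues did not move together. Of 18 pan-macrophage genes, 8 were lower and 6 higher, with a median of 0.00855, near the 33.8% and 30.3% of all tested genes. The complement genes C1qa and C1qc fell, with log2 fold changes of −2.24 and −2.45, and so did the lysozyme gene Lyz2 (−1.45). The integrin subunit Itgam (1.94), the Fc receptor chain Fcer1g (1.63), the tetraspanin Cd53 (1.53) and Adgre1 (0.903), which encodes F4/80, rose. When libraries were scaled to their totals Adgre1 lost its call (0.225, edgeR adjusted p = 0.078), and Ptprc and Spi1, which also rose, turned to lower. Aif1, which encodes the marker Iba1, was at 126 ± 41.3 CPM in vehicle and 126 ± 24.0 CPM after LPS.

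**Figure D5:**
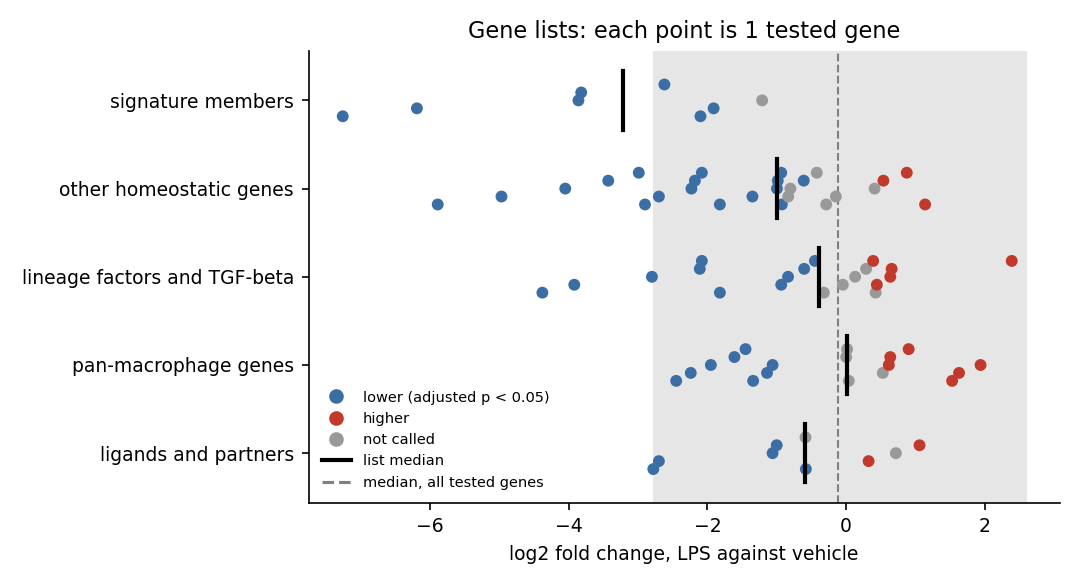
Log2 fold change of every tested gene among the members and in 4 other lists, coloured by edgeR call, with the median of each list (black) and of all tested genes (dashed), over their 5th to 95th percentile (grey). The medians are −3.22 for the members, −0.991 for other homeostatic genes, −0.384 for lineage factors and the TGF-beta pathway, 0.00855 for pan-macrophage genes and −0.585 for ligands and partners.

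Transcription factors of the lineage and the TGF-beta pathway, which keeps microglia in the homeostatic state, were mixed. Of 20 tested genes, 10 were lower and 5 higher, with a median of −0.384, beside 33.8% and 30.3% of all tested genes. Cebpa fell from 185 ± 11.7 to 8.86 ± 1.41 CPM (log2 −4.38), and Mef2c (−3.92) fell too. The TGF-beta receptor genes Tgfbr1 and Tgfbr2 fell (−1.82 and −2.11), and so did Nrros (−2.80), whose product presents latent TGF-beta on microglia. The signal transducer Smad3 was at −0.32 (edgeR adjusted p = 0.139) and Tgfb1 at −0.0464, neither passing the test. Spi1, which encodes PU.1, was at 0.638 (edgeR adjusted p = 0.0183), while Irf8 at 0.427 and Runx1 at 0.131 did not pass. Itgb8, a subunit of the integrin that activates TGF-beta, was at 2.39 (edgeR adjusted p = 0.0139), a call lost with the replicate block (adjusted p = 0.0502, edgeR) and with library totals (adjusted p = 0.054, edgeR). Under scaling to library totals 4 of the 5 higher genes (Spi1, Maf, Smad2 and Smad4) turned to lower, and Itgb8 did not. Only 3 genes were called higher without vehicle replicate 2, vehicle replicate 4 or LPS replicate 4.

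Relatives and neighbours of the ADP receptors were lower or not called in the main edgeR fit. Of 7 tested genes, which include P2ry12, P2ry13 and Gpr34, 5 were lower and 0 were higher by edgeR, with a median of −1.91. Of all tested genes, 33.8% were lower and 30.3% higher under the same rule. Of the 4 genes in this list that are not members, 2 were lower. Without vehicle replicate 3, 1 gene was called higher. Gpr183, an oxysterol receptor, fell by 8.32 on the log2 scale to 4, 3, 2 and 0 counts, at which the fitted size depends on the prior count. Gpr82, the neighbour of Gpr34, fell by 1.78. P2ry14, the UDP-glucose receptor gene next to P2ry13, was at 7.33 ± 4.67 CPM in vehicle and 13.3 ± 6.61 CPM in LPS libraries (log2 0.856, edgeR adjusted p = 0.122), and with the replicate block it was called higher (adjusted p = 0.00533, edgeR). Med12l, the gene that surrounds the cluster, was at −0.824 (edgeR adjusted p = 0.0964), and Gpr171 and P2ry10 had at most 3 counts in every library.

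Among ligands and partners of the members, 5 of 9 tested genes were lower and 2 higher, with a median of −0.585, beside the same shares of all tested genes. Entpd1, an enzyme that degrades ATP and ADP outside the cell, had a log2 fold change of −2.70 and Kcnk13, a potassium channel of ramified microglia, of −2.78. The sheddase genes Adam10 and Adam17, whose products release fractalkine, were both lower, Adam17 at −0.58. The inhibitory G protein subunits Gnai2 and Gnai3, through which the ADP receptors and Cx3cr1 signal, were at 0.325 and 1.06, both higher, and Gnai2 lost its call with the replicate block (adjusted p = 0.0581, edgeR), where Bmp1 gained one (0.022), and turned to lower when libraries were scaled to their totals. Cx3cl1, which encodes fractalkine, was at −0.585 and did not pass (edgeR adjusted p = 0.225). Only 1 gene was called higher without vehicle replicate 1, 2 or 4 or without LPS replicate 1, 2 or 4. Several genes stand in more than 1 list.

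The genes whose pattern over the 8 libraries was closest to a member were found by the root mean square difference of centred log2 CPM among 10656 genes. For P2ry12 these included Rell1 (0.196), and for Sall1 they were Ints6l (0.138) and Accs (0.142). For Tmem119 they were Itgax (0.215), the integrin subunit CD11c, and Mob3b (0.357), and for Gpr34 they were Smo (0.391) and Rnf144b (0.425). The distances for Gpr34 were larger than those given for P2ry12 and Sall1.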

How the data were processed

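The authors aligned reads to GRCm38 with GSNAP through HTSeqGenie and deposited raw counts of uniquely mapped reads per gene. The annotation release and the use of strand are not given in the sources used here. Identifiers without a vM21 symbol held 0.00512% of counts. Counts were tested with edgeR 4.0.16 (quasi-likelihood, TMM, filterByExpr with a minimum count of 10), two-sided, over all genes, and CPM are TMM-scaled. DESeq2 1.42.0, other scalings, filters and left-out libraries were alternatives. Fits were run on simulated data in which only a small share of genes changed, as many up as down. That check does not cover a change as broad as the one in these libraries. Same-numbered libraries of the 2 groups deviated together (r = 0.373, 0.196, 0.171 and 0.108 over 8010 genes, each above the limit of 0.1 set for pairing). No correlation of unlike-numbered libraries is given for comparison. The main edgeR and permutation tests were unpaired. The replicate number served as a block in an alternative edgeR fit and for the sign flips within pairs. Named genes are the members, genes of the lists, and the 2 genes nearest to each of 4 members. Some of these genes count in the totals but are not reported singly here. The members and lists were chosen with earlier results of these data known.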

Additional observations from a re-analysis of the deposited data

Results flagged for a closer look

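Within the 4 vehicle libraries, replicate 3 stood apart for P2ry13, at 43.4 CPM, where the others were at 25.7 to 27.4 CPM. Its gap to the nearest library was 0.902 of the whole range, above Dixon's critical value for 4 values. This was 1 of 16 groups of 4 libraries examined (8 members in each group), and chance alone marks about 1 in 20 such groups.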

How the results depend on the processing

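No member changed direction in LPS against vehicle under any setting that was run, and no list gene called lower did under another scaling. Between 7 and 8 members were called lower when each library was left out in turn. Tmem119 passed under DESeq2 (log2 −1.15, adjusted p = 0.04), without a filter (−1.25), with upper-quartile scaling (−1.36), with library totals (−1.88, a choice made after seeing the data) and with the replicate block. A filter of 10 counts in every library removed Gpr34. With the replicate block 1 P2Y cluster gene was called higher, from 0, and 20 other homeostatic genes were lower, 7 pan-macrophage genes higher and 4 lineage and TGF-beta genes higher. Scaling to library totals moved the median of all genes by −0.677, with 8457 genes lower and 1988 higher, and left 0 other homeostatic genes, 3 pan-macrophage genes and 0 lineage and TGF-beta genes higher. Lineage and TGF-beta genes called higher numbered 3 with upper-quartile scaling, 2 at an adjusted p under 0.01 and 3 to 6 with a library left out. P2Y cluster genes called lower numbered 2 under the filter of 10 counts, and those called higher 0 to 1 with a library left out. Partners called higher numbered 1 under that filter, upper-quartile scaling or an adjusted p under 0.01, and 1 to 2 with a library left out. The cause was not tested. Leaving out single libraries gave log2 differences of the ratio to P2ry12 of −5.5 to −4.92 for Cx3cr1, −4.33 to −4.0 for Gpr34, −2.31 to −1.53 for Olfml3, −0.775 to −0.607 for P2ry13, −2.07 to −1.75 for Fcrls, −0.475 to 0.0886 for Sall1 and −0.0278 to 1.05 for Tmem119. Without vehicle replicate 3 the first 5 of these had an exact permutation p adjusted to 0.0457, with all 5 tied at the smallest p. With any other library left out it was 0.0571 or more. Low counts after LPS limit the size given for Gpr34, and depth limits any statement on Siglech.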
